A study of Mus musculus with 11 samples.

Results

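The genes described here are 10 genes of the macrophage growth factor and fractalkine axis, chosen by symbol from the 28692 genes in the count matrices: Csf1, Il34, Csf1r, Csf2, Csf2ra, Cx3cl1, Cx3cr1, Mif, Cd47 and Sirpa. All 10 were present. They were measured by 10x Chromium 3′ scRNA-seq of kidney suspensions made with a cold-active protease, from male C57Bl/6 mice that were 10 weeks old at surgery. In UIR the left renal pedicle was clamped and reperfused, in UUO the left ureter was tied irreversibly, and injured kidneys were taken at day 28. The 5 control libraries (Ctrl, N1, N2, AN1 and AN2) came from naive mice of the same strain, sex and age, and there were 3 libraries of UIR (UIR, UIR1, UIR2) and 3 of UUO (UUO, UUO1, UUO2).

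CSF1 and IL-34 are the ligands of the receptor tyrosine kinase CSF1R, on which most tissue macrophages depend for survival and proliferation. CX3CL1 (fractalkine) is a membrane-bound chemokine that can be shed, and its receptor CX3CR1 marks kidney macrophages and patrolling monocytes. CSF2 (GM-CSF) signals through CSF2RA with a shared beta chain, MIF is a cytokine read through CD74, and CD47 is the surface protein that engages SIRPA on phagocytes and restrains engulfment.

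The libraries held 49503312 to 117043590 unique molecular identifiers (UMIs, 1 per captured transcript) each. After filtering, 40485 cells were kept, 10241 from controls, 16927 from UIR and 13317 from UUO, and 212 barcodes (0.526% of the distinct barcodes) occurred in 2 or 3 libraries. Clusters were named from fixed markers and every class name means "like" that type: proximal tubule (PT), loop of Henle (LOH), distal tubule (DT), collecting duct principal and intercalated cells (CD-P, CD-I), failed repair tubular cells (frTEC), podocytes (Podo), endothelium, stroma, macrophages, monocytes, cDC1, cDC2, neutrophils, B and T/NK cells. Clusters that met no criteria stayed unnamed, with 9.04% of the cells in controls, 12.6% in UIR and 11.9% in UUO. The 30% limit on mitochondrial UMIs removed 56.9% to 78.7% of the called barcodes per control library, against 23.6% to 36.9% for UIR and 3.13% to 7.67% for UUO. For each class the UMIs of a library's cells were added up where there were at least 20 such cells, and levels are given in counts-per-million (CPM) of that sum. In the text ± is the SD over libraries after a level and the standard error after a log2 fold change, and adjusted p comes from edgeR (quasi-likelihood test, Benjamini-Hochberg over every tested gene of the class). The labels do not say that each library came from its own animal, so p-values measure the spread between libraries. The paper's methods give as many mice per injury model for this platform as there are libraries here. They give as many naive control mice as control libraries, without naming the platform.

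The ligands Csf1, Il34 and Cx3cl1 and the surface protein Cd47 were higher in several distal tubular classes of both injuries, whereas Mif was lower there. In macrophages Csf1r and Cx3cr1 per UMI did not pass the test and Csf2ra was lower. Of 63 tests of a gene in a class, 32 were called in UIR (26 higher, 6 lower) and 29 in UUO (22 higher, 7 lower). Without frTEC, whose controls rest on 3 libraries and mostly on another cluster, 24 were higher and 5 lower in UIR, and 19 and 6 in UUO. Below, a call is said to be lost where its adjusted p rose to 0.05 or above, or its direction turned, under another setting or without a library, and where values are given for such a loss they are the log2 fold change and adjusted p found there.

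These counts stand against the share of all genes that passed the same test. In LOH 7 of 8 tested genes were called in UIR, with 33% of all genes called, and 5 of 8 in UUO, with 37.6%. In DT 6 of 7 were called in UIR (35.3% of all genes) and 7 of 7 in UUO (44.4%). In CD-P 3 of 7 (16.4%) and 4 of 7 (31.4%) were called. The distal tubule was thus the class with the most calls in UUO and also the one where the largest share of all genes was called.

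In CD-I 3 of 5 genes were called in each injury, beside 14.3% and 26.2% of all genes. In PT 4 of 8 were called in UIR (11.7%) and 0 of 8 in UUO (3.46%), where only 169 cells remained. In frTEC 3 of 8 (7.66%) and 4 of 8 (11%) were called. Outside the tubule, the endothelium gave 2 of 7 (1.97%) and 3 of 7 (12%), stroma 3 of 7 (14.5%) and 2 of 7 (11.6%), and macrophages 1 of 6 (5.9%) and 1 of 6 (9.57%). Csf2 had too few UMIs for a test in any class.

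**Figure D1:**
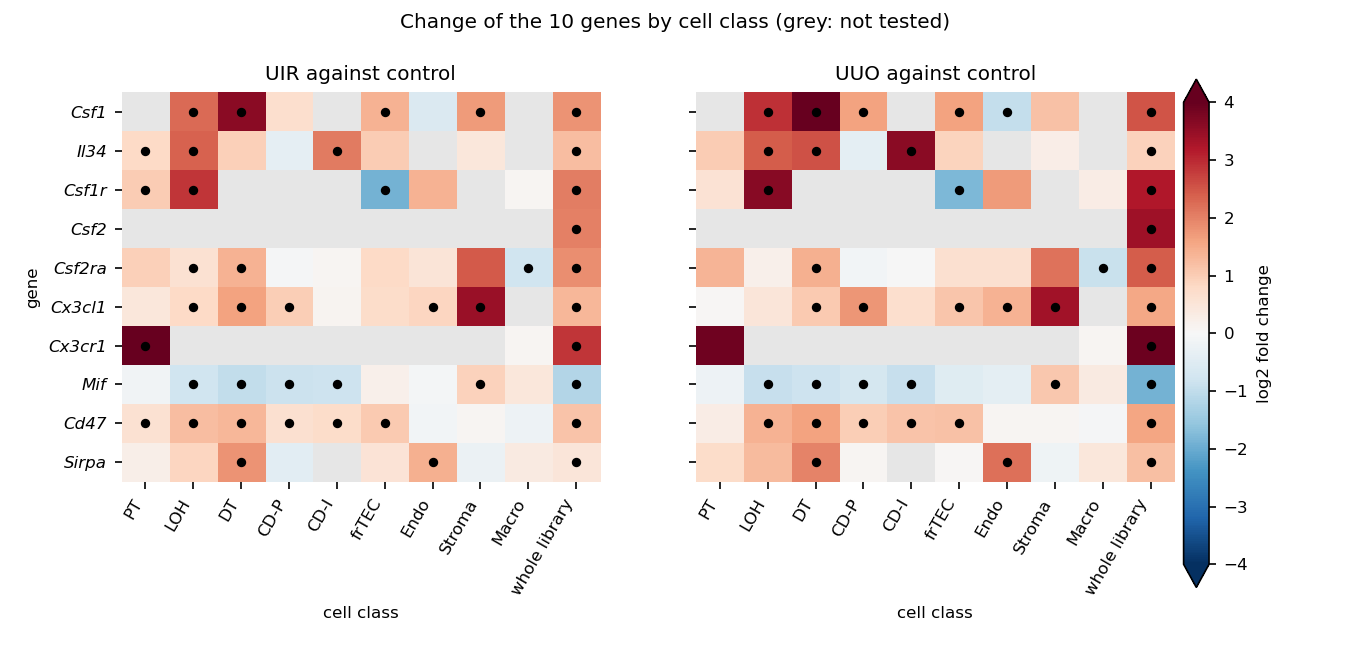
Log2 fold change of the 10 genes (rows) in 9 cell classes and in whole-library totals (columns), UIR against control on the left and UUO against control on the right. Black dots mark an adjusted p under 0.05 and grey cells were not tested. The rows of Csf1, Il34, Cx3cl1 and Cd47 are red across LOH and DT, and the row of Mif is blue from LOH to CD-I.

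Most tubular comparisons are between different clusters of 1 class. In LOH, 272 of 274 control cells lay in a cluster led by Egf and Wfdc15b that held 89 UIR and 8 UUO cells, whereas injured cells lay in a cluster led by Slc12a1 and Umod (2 control, 907 UIR and 364 UUO cells) and in one led by Psca, Slurp1 and Mmp7 (0, 225 and 334). In DT, 543 of 544 control cells were in clusters led by Slc12a3 or by S100g, while 358 of 738 UIR and 242 of 299 UUO cells were in a cluster led by Clu with 1 control cell. In CD-P, clusters led by Aqp3 and Aqp2 held 108 and 99 of the 212 control cells and one led by Aldh1a3 the other 5 (with 27 UIR and 60 UUO cells), and 136 UIR and 219 UUO cells lay in one led by Spink8 without a control cell. In PT, 1059 of 2461 UIR cells were in a cluster led by Cpn1 with a median of 925 UMIs per cell, which held 88 of 6466 control cells, and the cluster with the most control cells, led by Car3, held 1154 control and 145 UIR cells. In CD-I the cluster led by Aqp6 held 47 control, 189 UIR and 164 UUO cells, and the cluster led by Atp6v1g3 147, 227 and 47. A change of state within a cell and a change in which cells were present cannot be told apart in these sums, and values within clusters stand beside the results below. Within the cluster holding the most control cells, 0.349% of all genes were called in PT of UIR and 0.685% in LOH. In DT the share was 13.3%, in CD-P 4.29% and in CD-I 22.4%. A difference not called there is no sign that a gene was unchanged.

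Csf1 (ENSMUSG00000014599, chr3:107741048-107760469, minus strand, GRCm38), the gene of the main CSF1R ligand, was higher in LOH, DT and frTEC of both injuries and in CD-P of UUO. The 250 bases before the RefSeq start are shown for Csf1 alone, although Cx3cl1 and Cd47 also rose in several tubular classes. The Csf1 bases lie at chr3:107760470-107760719 (minus strand, GRCm38.p6). The capitals mark the NF-kB consensus as read on the opposite strand, which begins 154 bases before the start.
Csf1 promoter: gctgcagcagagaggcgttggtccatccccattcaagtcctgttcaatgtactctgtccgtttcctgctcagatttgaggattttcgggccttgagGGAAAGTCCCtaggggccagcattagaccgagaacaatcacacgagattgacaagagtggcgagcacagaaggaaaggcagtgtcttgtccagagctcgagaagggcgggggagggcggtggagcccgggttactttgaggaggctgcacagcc
That exact string occurs on either strand in 46 of 32851 promoter windows of this length (0.14%), and other forms of NF-kB sites were not searched. Of the 7 genes with a window (Csf1, Cx3cl1, Cx3cr1, Mif, Csf2, Cd47, Csf2ra), Csf1 was the one that held it, and none held TGANTCA, the AP-1 letters found in 6.75% of windows. TATAAA, found in 12.4% of windows, was matched in Cx3cl1. These are matches of letters and say nothing of binding.

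In LOH, Csf1 was at 0, 4.63, 5.18, 5.52 and 10.2 CPM in the controls, 17.0, 27.5 and 35.1 CPM in UIR and 32.3, 41.8 and 54.7 CPM in UUO. All 6 injured libraries lay above all controls, and the log2 fold change was 2.26 ± 0.5 (adjusted p = 0.00101) in UIR and 2.92 ± 0.47 (adjusted p = 2.11e-05) in UUO. In the Egf-led cluster that holds the controls, Csf1 was 5.16 ± 3.64 CPM in controls and 8.99 ± 12.7 CPM in the UIR libraries with enough cells (n = 2). In the cluster led by Slc12a1 it was 16.8 ± 2.37 CPM in UIR and 21.4 ± 8.55 CPM in UUO, and in the cluster led by Psca 68.6 ± 45.6 CPM and 62.6 ± 13.5 CPM.

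In DT, Csf1 was at 0, 6.15, 0, 0 and 0 CPM in the controls, 5.17, 6.63 and 27.3 CPM in UIR and 59.5, 67.5 and 64.8 CPM in UUO. The UUO libraries lay far above all others, while the UIR libraries overlapped the controls, of which only N1 held UMIs. Over 2 control UMIs in all, the ratio of summed levels was 16.4 (95% interval 4.4 to 138) in UIR and 89.2 (95% interval 24.5 to 739) in UUO, and both differences were called (adjusted p = 0.00509 and 1.7e-07, edgeR). The UIR call was lost without both AN libraries (3.01, adjusted p = 0.0591). UUO exceeded UIR by a log2 fold change of 2.31 ± 0.33 (adjusted p = 4.31e-05), and in the Clu-led cluster alone the levels were 14.1 ± 13.7 CPM and 66.1 ± 5.54 CPM.

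In CD-P the gene was already at 22.7, 16.2, 29.0, 27.7 and 22.2 CPM in controls, with 34.2, 34.2 and 48.0 CPM in UIR and 79.3, 89.8 and 51.9 CPM in UUO. The UUO rise was called, at 1.6 ± 0.22 (adjusted p = 1.32e-05), and the UIR difference was not, at 0.66 ± 0.24 (adjusted p = 0.0731), although no UIR library reached down to the controls. In the Aqp3-led cluster shared by both, Csf1 was 23.6 ± 6.33 CPM in controls and 16.0 ± 11.8 CPM in UIR, against 55.7 ± 14.1 CPM in UIR and 82.9 ± 24.4 CPM in UUO in the Spink8-led cluster. CD-I had too few UMIs for the test, and its summed levels gave ratios over 3 control UMIs of 5.97 (95% interval 1.89 to 30.2) and 16.4 (95% interval 5.35 to 81.7). In frTEC it was 20.6 ± 12.3 CPM in controls, 50.5 ± 4.74 CPM in UIR and 61.7 ± 6.15 CPM in UUO, called in both and lost under 8 of 24 alternatives in UIR and 6 of 24 in UUO. At a mitochondrial limit of 50% the frTEC log2 fold changes were 0.35 (adjusted p = 0.712) and 0.87 (adjusted p = 0.289), and with predicted doublets kept 0.42 (adjusted p = 0.338) and 0.45 (adjusted p = 0.293). Both calls were also lost without Ctrl (1.07, adjusted p = 0.128 and 1.29, adjusted p = 0.0523) or AN2, and the UIR call without UIR1 or UIR2. Stromal markers rose in the same frTEC pools. The sum of 7 of them was 14.0 to 126 CPM in controls (Pdgfra at 0), 231 to 561 CPM in UIR and 680.5 to 1580 CPM in UUO (none at 0). The part of stromal RNA in the frTEC rise was not tested.

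Endothelial cells had the highest Csf1 level of any control class, and there the gene went the other way. It was at 117, 137, 162, 112 and 138 CPM in the controls, 109.8, 92.4 and 74.0 CPM in UIR and 66.3, 80.9 and 70.6 CPM in UUO, with every UIR and UUO library below the lowest control. The fall was called in UUO, at -0.96 ± 0.15 (adjusted p = 0.000291), and not in UIR, at -0.57 ± 0.15 (adjusted p = 0.0652). In glomerular endothelium it was at 271 ± 56.8 CPM in controls, 219.5 ± 21 CPM in UIR and 122 ± 6.3 CPM in UUO. There the log2 fold change was -1.21 ± 0.16 (adjusted p = 2.34e-06) in UUO and -0.32 ± 0.16 (adjusted p = 0.447) in UIR, where 10.4% and 2.61% of all genes were called.

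Glomerular control cells lay mostly in a cluster led by Pi16 (198 control, 98 UIR and 10 UUO cells), and injured ones in clusters led by Meg3 or Esm1. In peritubular endothelium Csf1 was lower in both injuries, at -1.07 ± 0.29 (adjusted p = 0.0278) and -1.19 ± 0.3 (adjusted p = 0.00596), with 4.19% and 8.66% of genes called. Within the Rgcc-led cluster that held the most control endothelial cells, the change was -1.37 ± 0.37 (adjusted p = 0.0441) and -1.85 ± 0.44 (adjusted p = 0.00844), so the decrease was also present between cells of 1 cluster.

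In stroma, Csf1 was at 0, 17.2 and 31.9 CPM in the 3 controls with enough cells, at 52.6, 51.0 and 51.2 CPM in UIR and at 35.7, 36.1 and 39.3 CPM in UUO. The rise was called in UIR, at 1.71 ± 0.47 (adjusted p = 0.0234), and not in UUO, at 1.17 ± 0.49 (adjusted p = 0.151). The UIR call was lost without N1, N2 or UIR1. The 105 control stromal cells held 10 Csf1 UMIs in all. Of these cells 90 lay in a cluster led by Sfrp2, which held 57 of 628 UIR and 158 of 694 UUO cells. The stromal difference thus compares largely different cells. Neutrophils, which reached 20 cells only in UUO libraries, held 634, 652 and 504 CPM, the highest Csf1 level of any class, while macrophages held 4.5 ± 0.659 CPM. No control or UIR level could be set beside that of neutrophils.

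Summed over kept cells, the endothelium contributed 77.1% ± 3.41 of Csf1 UMIs in controls, 27.6% ± 13.4 in UIR and 24.5% ± 0.725 in UUO. The tubular classes contributed 19.2% ± 2.76, 56% ± 12.4 and 48.2% ± 7.49 (SD over 5, 3 and 3 libraries). All injured libraries lay above all controls in the tubular share, with a two-sided exact permutation p of 0.0357 in each injury, the smallest that 5 against 3 libraries allow (0.0476 adjusted over 12 share tests). Cells of myeloid classes other than macrophages gave 15.7% ± 6.27 in UUO. These shares, and those of other genes below, cover kept cells only, and the mitochondrial limit removed more barcodes from controls. Class sizes moved as well, with 274, 1221 and 706 LOH cells and 629, 1249 and 1676 endothelial cells in controls, UIR and UUO. Cell numbers and levels per cell cannot be told apart in the shares.

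**Figure D2:**
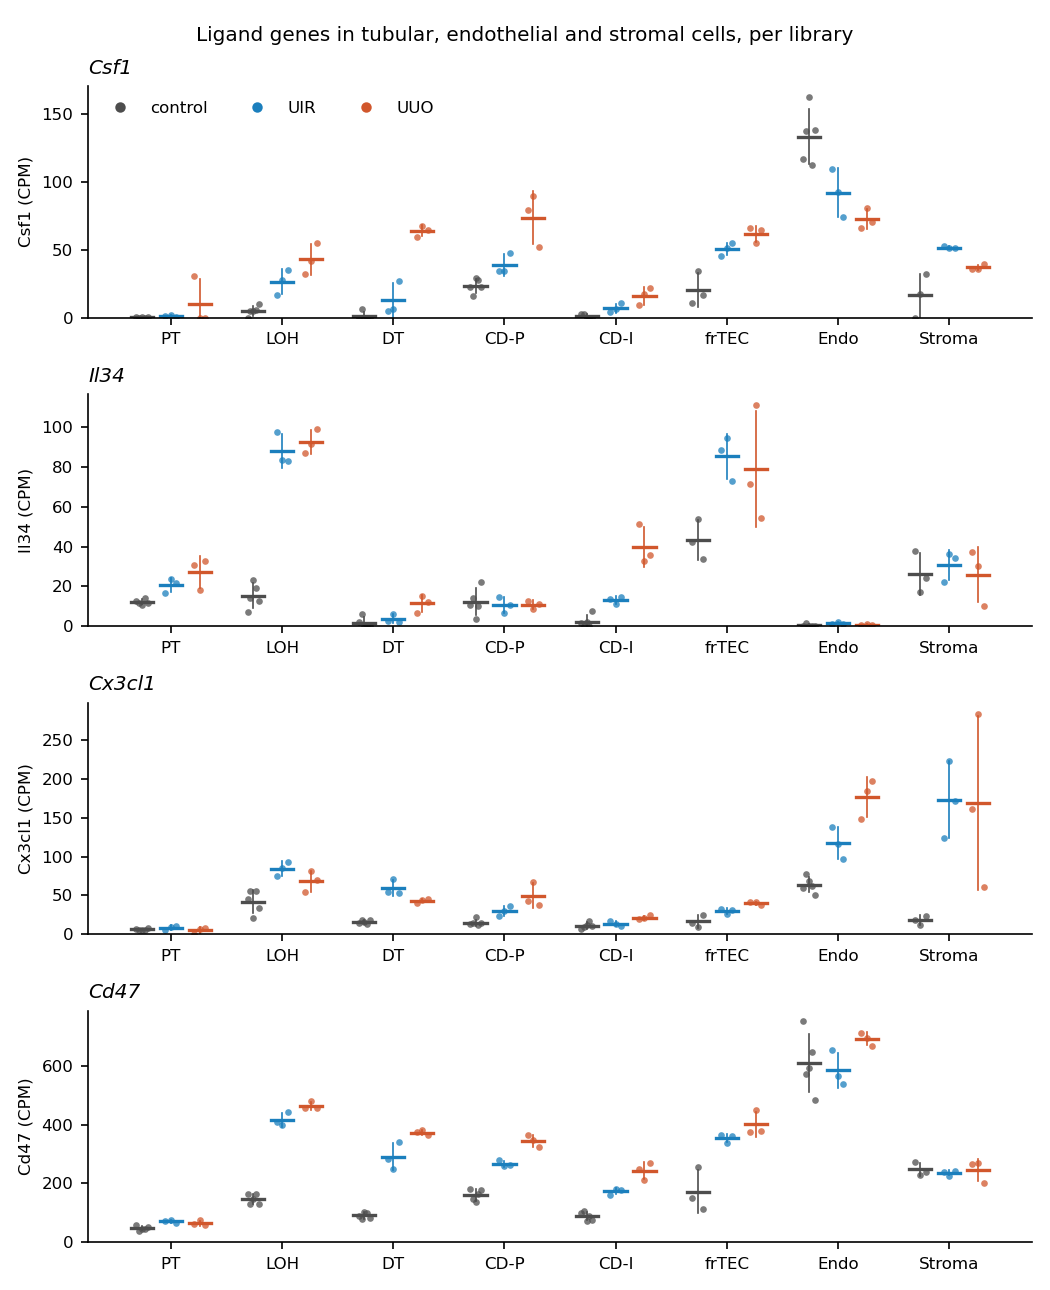
Levels of Csf1, Il34, Cx3cl1 and Cd47 in CPM of the summed class (y axes) in tubular, endothelial and stromal classes (x axes). Each point is a library, wide bars are means and thin lines the SD. Csf1 was highest in control endothelium, Il34 in injured LOH and frTEC, Cx3cl1 in injured endothelium and stroma, and Cd47 in endothelium of all 3 groups.

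Il34 (ENSMUSG00000031750, chr8:110741829-110805924, minus strand), the alternative CSF1R ligand, rose in LOH and CD-I of both injuries, in PT of UIR and in DT of UUO. In LOH it was at 6.96, 13.9, 23.3, 19.3 and 12.8 CPM in the controls, 97.8, 83.4 and 83.2 CPM in UIR and 87.3, 91.5 and 99.1 CPM in UUO, so injured and control libraries stood well apart. The log2 fold change was 2.35 ± 0.24 (adjusted p = 2.71e-08) in UIR and 2.42 ± 0.24 (adjusted p = 1.23e-08) in UUO. In the Egf-led cluster the UIR cells held 18.8 ± 1.1 CPM (n = 2) against 14.4 ± 5.04 CPM in controls, while the clusters led by Slc12a1 and Psca held 87.4 ± 7.2 CPM and 99.7 ± 15.1 CPM in UIR.

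In CD-I, Il34 was at 1.26, 0, 1.75, 0 and 7.74 CPM in the controls, 13.7, 10.9 and 14.6 CPM in UIR and 51.5, 32.6 and 35.8 CPM in UUO. The 3 groups did not overlap, and both rises were called, at 2.09 ± 0.53 (adjusted p = 0.00771) and 3.6 ± 0.46 (adjusted p = 1.56e-06), the UIR one being lost without both N libraries (1.76, adjusted p = 0.0672). In the Aqp6-led cluster it was 17.7 ± 0.667 CPM in UIR and 41.8 ± 10.2 CPM in UUO. In the Atp6v1g3-led cluster it was 0 CPM in the 4 controls with enough cells and 24.8 ± 14.3 CPM in UIR. Cells of that cluster had a median of only 1208 UMIs, and Il34 had too few UMIs for the test there, so no difference within it can be read from these levels.

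In PT it was at 12.8, 11.6, 10.7, 13.8 and 11.4 CPM in controls and 16.4, 23.5 and 21.5 CPM in UIR, a called rise of 0.79 ± 0.15 (adjusted p = 0.000906) that was lost at a mitochondrial limit of 15% (1.12, adjusted p = 0.0705). The 3 UUO libraries, with 32 to 86 PT cells each, also lay above the controls, at 30.9, 18.1 and 32.7 CPM, without passing the test (1.01 ± 0.33, adjusted p = 0.107). In DT the gene was low, at 1.66 ± 2.68 CPM in controls, 3.61 ± 2.22 CPM in UIR and 11.4 ± 4.3 CPM in UUO, and was called in UUO. In CD-P it was 12.1 ± 6.77 CPM in controls, 10.6 ± 3.84 CPM in UIR and 10.7 ± 2.19 CPM in UUO and was not called, and podocytes, which were not among the tested classes, held 40.6 ± 17.1 CPM in controls, 56.4 ± 17.2 CPM in UIR and 78.2 ± 46.8 CPM in UUO.

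The tubule gave nearly all Il34 UMIs throughout, 86.7% ± 3.01 in controls, 89.5% ± 2.37 in UIR and 86.6% ± 4.44 in UUO, with exact p of 0.214 and 1. Within it the source moved, since PT held 71.8% ± 3.7 of the UMIs in controls, 7.15% ± 3.29 in UIR and 1.41% ± 1.77 in UUO. PT cells themselves were 6466 in controls, 2461 in UIR and 169 in UUO, so the number of PT cells moved with that share.

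Cx3cl1 (ENSMUSG00000031778, chr8:94772009-94782427, plus strand), the fractalkine gene, rose in DT, CD-P, endothelium and stroma of both injuries, in LOH of UIR and in frTEC of UUO. In DT it was at 13.9, 18.5, 16.3, 12.8 and 17.8 CPM in the controls, 53.9, 71.0 and 53.5 CPM in UIR and 40.8, 43.6 and 44.9 CPM in UUO, and all injured libraries lay above all controls. The rise was 1.6 ± 0.21 (adjusted p = 1.27e-06) in UIR and 1.06 ± 0.22 (adjusted p = 0.000298) in UUO, and UUO was lower than UIR by a log2 fold change of -0.54 ± 0.16 (adjusted p = 0.0344). With a mitochondrial limit of 50% the UIR difference in DT was 0.32 (adjusted p = 0.294), and at a limit of 15% the UUO difference was 0.7 (adjusted p = 0.187). In LOH the levels were 42.0 ± 15 CPM in controls, 84.5 ± 9.4 CPM in UIR and 68.5 ± 13.6 CPM in UUO, called in UIR (adjusted p = 0.00344) but not in UUO (0.49 ± 0.21, adjusted p = 0.0682). Within the Egf-led cluster the UIR difference was not called, at 0.66 ± 0.36 (adjusted p = 0.586). In frTEC the levels were 16.4 ± 7.96 CPM in controls, 30 ± 3.56 CPM in UIR and 39.9 ± 2.12 CPM in UUO, and the UUO call (adjusted p = 0.0445) was lost under 14 of 24 alternatives, among them DESeq2, the replicate block (1.14, adjusted p = 0.0558) and the removal of any 1 injured library. The stromal markers given above for frTEC moved in the same direction, and the part of stromal RNA in this rise was not tested. The DT difference between UUO and UIR was lost under 6 of 22, including without UIR1 or any 1 UUO library.

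In CD-P, Cx3cl1 was at 13.4, 13.9, 21.7, 11.7 and 14.3 CPM in the controls, 23.3, 29.7 and 36.1 CPM in UIR and 43.4, 67.7 and 37.9 CPM in UUO. Both rises were called, at 0.99 ± 0.28 (adjusted p = 0.0171) and 1.76 ± 0.26 (adjusted p = 2.15e-05). The UIR call was lost without AN1 (0.92, adjusted p = 0.0536), UIR2 (0.86, adjusted p = 0.0857) or both AN libraries (0.92, adjusted p = 0.124). In the Aqp3-led cluster the level was 16.1 ± 7.04 CPM in controls and 16.6 ± 3.99 CPM in UIR, and in the Spink8-led cluster it was 34.0 ± 4.86 CPM and 40.4 ± 6.05 CPM in UIR and UUO.

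The endothelial level of Cx3cl1 was 60.2, 77.3, 68.1, 61.7 and 51.0 CPM in controls, 138, 117 and 97.2 CPM in UIR and 149, 185 and 198 CPM in UUO, without overlap between injured and control libraries. The rise was 0.85 ± 0.16 (adjusted p = 0.00545) and 1.39 ± 0.15 (adjusted p = 5.89e-06), and the UIR call was lost without both AN libraries (0.76, adjusted p = 0.0758). In glomerular endothelium it was at 127, 113, 80.5, 111 and 62.5 CPM in the controls, 252, 316 and 291 CPM in UIR and 276, 377 and 367 CPM in UUO, a rise of 1.48 ± 0.18 (adjusted p = 4.19e-06) and 1.7 ± 0.18 (adjusted p = 2.86e-08). Control glomerular cells lay mostly in the Pi16-led cluster (198 control, 98 UIR and 10 UUO cells), and injured ones in clusters led by Meg3 or Esm1. The part of that makeup in the rise was not tested.

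In peritubular endothelium the fractalkine gene Cx3cl1 was 25.4 ± 14.7 CPM in controls, 26.3 ± 10.4 CPM in UIR and 20.1 ± 3.26 CPM in UUO, and neither difference passed the test (-0.18 ± 0.39, adjusted p = 0.913 and -0.63 ± 0.41, adjusted p = 0.421). Whether the response differed between the glomerular and peritubular cells was not tested. In glomerular cells of UUO, Csf1 was thus lower and Cx3cl1 higher than in controls, between the different clusters named above. Arterial cells held 83.0 ± 28.9 CPM in controls, 64.0 ± 26.4 CPM in UIR and 74.7 ± 21.4 CPM in UUO of Cx3cl1.

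**Figure D3:**
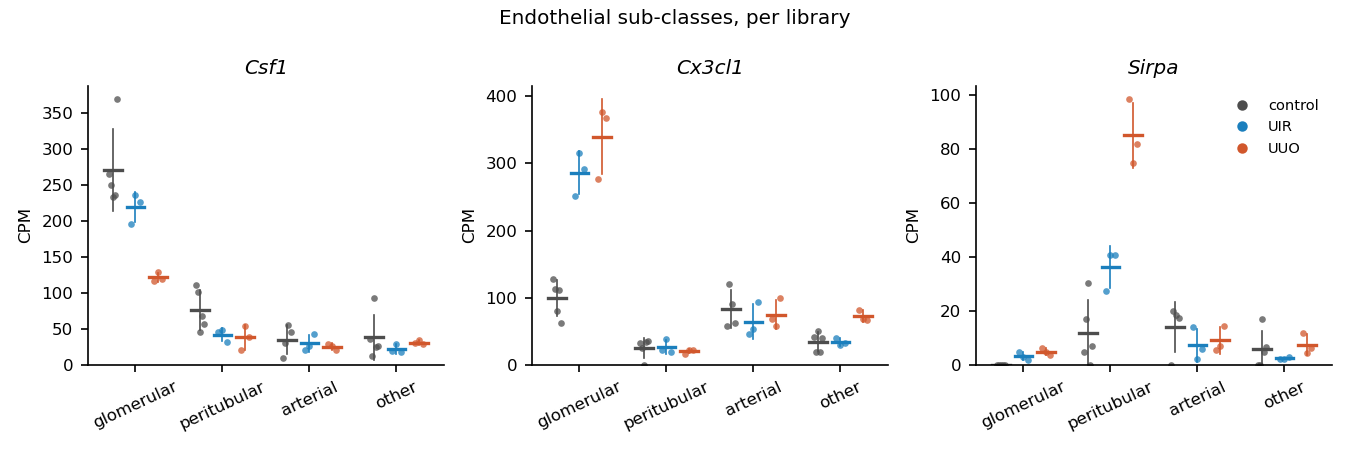
Csf1, Cx3cl1 and Sirpa in endothelial sub-classes, in CPM of the summed sub-class (y axes). Each point is a library with at least 10 cells of the sub-class, wide bars are means and thin lines the SD. In glomerular cells Csf1 was lowest and Cx3cl1 highest in UUO, and Sirpa in peritubular cells was above 70 CPM in all 3 UUO libraries.

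In stroma, Cx3cl1 was at 18.9, 11.5 and 23.9 CPM in 3 controls, 124, 224 and 172 CPM in UIR and 162, 285 and 61.2 CPM in UUO. The change was called in both, at 3.46 ± 0.7 (adjusted p = 0.00387) and 3.37 ± 0.7 (adjusted p = 0.00632). The UUO call was lost without N2 (3.09, adjusted p = 0.0627), and without both N libraries, which leaves 1 control, neither was called (3.02, adjusted p = 0.245 and 2.93, adjusted p = 0.304). The sub-classes behind these sums differed, since control stroma was mostly of the Pdgfrb class (Fibro 3, 90 of 105 cells), and no control library held enough matrix fibroblasts (Fibro 1). Cx3cl1 was 352 ± 40 CPM in Fibro 1 of UIR and 319.8 ± 134 CPM in UUO, 2.42 ± 1.33 CPM and 4.49 ± 5.19 CPM in the contractile Fibro 2, and 11.3 ± 9.88 CPM in control and 21.7 ± 5.71 CPM in UUO Fibro 3. Library UUO2, with the lowest stromal level in UUO, was also the one with the fewest stromal cells (151).

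Of all Cx3cl1 UMIs, the tubule held 61.3% ± 7.64 in controls and 63.1% ± 3.5 in UIR (exact p = 0.75), and 36.1% ± 5.83 in UUO (exact p = 0.0357, 0.0476 adjusted). PT alone held 36.2% ± 5.22 in controls, 2.31% ± 1.12 in UIR and 0.146% ± 0.174 in UUO. In both injuries nearly all of the tubular share thus came from tubular classes other than PT. Endothelium held 28.1% ± 6.36, 17.9% ± 6.85 and 45.1% ± 12.3. The stromal share was 1.22% ± 0.765, 13.8% ± 4.06 and 14.7% ± 11.4.

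Cx3cr1 (ENSMUSG00000052336, chr9:119901616-120069879, minus strand), the fractalkine receptor gene, was a macrophage and monocyte transcript in these data. In macrophages it was at 714, 621, 599.5, 529 and 563 CPM in the controls, 689, 617 and 628 CPM in UIR and 585, 588 and 850.5 CPM in UUO. The groups overlapped, with log2 fold changes of 0.09 ± 0.13 (adjusted p = 0.782) and 0.07 ± 0.13 (adjusted p = 0.832). Monocytes of UUO held 371 ± 98.6 CPM, cDC2 70.9 ± 23.8 CPM in UIR and 66.7 ± 8.64 CPM in UUO, and neutrophils 7.26 ± 6.29 CPM. Macrophages gave 92.7% ± 4.16 of its UMIs in controls, 90.7% ± 1.57 in UIR and 86.5% ± 5.31 in UUO.

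In PT, Cx3cr1 was called in UIR, from 0.194 ± 0.113 CPM to 3.62 ± 0.576 CPM. The 5 macrophage markers (C1qa, C1qb, C1qc, Ms4a7, Adgre1) moved with it, with a sum of 2.84 to 4.34 CPM in control PT and 66.3 to 124 CPM in UIR PT and none of the 5 at 0. From the macrophages' own ratio of Cx3cr1 to those markers, the marker UMIs in UIR PT go with 52.2 UMIs of Cx3cr1, and 49 were observed. In LOH 33 were observed in UIR against 37.0. Over the tubular pools of both injuries the ratio of observed UMIs to those that go with the markers ran from 0.613 (CD-P of UUO) to 1.45 (CD-I of UUO). In PT cells without a C1q UMI, Cx3cr1 was 0.209 CPM in control and 2.97 CPM in UIR. The PT call held under all 23 alternatives, and the part of macrophage RNA in it was not tested.

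Csf1r (ENSMUSG00000024621, chr18:61100598-61132149, plus strand), the receptor for both growth factors, was at 773, 729, 522, 761 and 665 CPM in the controls, 799, 688 and 698 CPM in UIR and 970.4, 838 and 900.0 CPM in UUO in macrophages. UIR overlapped the controls and all 3 UUO libraries lay above them. Neither injury passed the test, at 0.07 ± 0.13 (adjusted p = 0.842) and 0.3 ± 0.13 (adjusted p = 0.166). The macrophages compared were largely of different clusters, since 240 of 370 control cells lay in a cluster led by P2ry6 (555 UIR and 504 UUO cells), 1752 of 3814 UIR cells in one led by Ccl8 with a median of 720 UMIs per cell, and 1287 and 1044 of 4255 UUO cells in ones led by Aif1 and Pf4. Within the P2ry6-led cluster the change was 0.04 ± 0.13 (adjusted p = 0.927) and 0.23 ± 0.13 (adjusted p = 0.361).

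Among macrophages of the injured kidneys, Csf1r was 1069 ± 46.5 CPM in UIR and 1380.0 ± 29.9 CPM in UUO in the Mrc1-Folr2 sub-class, and 705 ± 169 CPM and 790.3 ± 26.7 CPM in the Trem2-Gpnmb sub-class. Cx3cr1 was 849 ± 66.3 CPM and 929.8 ± 255 CPM in the former, and 602 ± 35.9 CPM and 645 ± 102 CPM in the latter. The Mrc1-Folr2 share of macrophages was 1.59% ± 1.76 in controls, 12.8% ± 1.84 in UIR and 12.6% ± 4.63 in UUO, and the Trem2-Gpnmb share 0.534% ± 0.732, 4.16% ± 0.916 and 6.48% ± 2.06. All 4 differences from control had an exact permutation p of 0.0357 (0.0476 adjusted). These clusters were formed on genes other than the 10 described, and no control library held enough cells of either sub-class for a level.

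**Figure D4:**
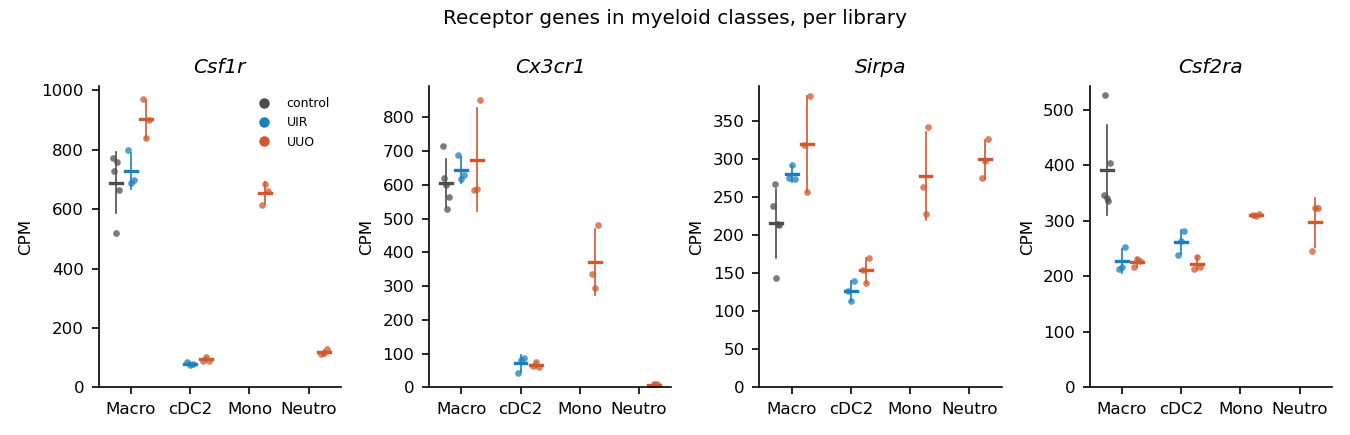
Levels of Csf1r, Cx3cr1, Sirpa and Csf2ra in myeloid classes (x axes), in CPM of the summed class (y axes). Points are libraries, wide bars means and thin lines the SD. Macrophages of UIR overlap the controls for Csf1r and Cx3cr1, and every injured library lies below every control for Csf2ra.

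Outside the myeloid classes Csf1r was counted in frTEC and PT of controls. Control frTEC held 56.1, 83.4 and 64.5 CPM in the 3 libraries, with all 5 macrophage markers at 0 there, against 10.3, 18.6 and 24.5 CPM in UIR and 21.9, 19.3 and 18.7 CPM in UUO, with a marker sum of 29.7 to 66.1 CPM and 43.0 to 69.6 CPM. The fall was called, at -1.88 ± 0.31 (adjusted p = 0.00353) and -1.81 ± 0.33 (adjusted p = 0.0045). It compares different cells, since 61 of 112 control frTEC lay in a cluster led by Fst and Lypd2, and most injured ones in other clusters.

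In control PT, 294 Csf1r UMIs were observed where the macrophage markers go with 6.45, and 288 of them lay in the 6352 cells without a C1q UMI. In UIR PT 170 UMIs stood against 58.6, and the level rose from 5.81 ± 1.43 CPM to 11.5 ± 1.61 CPM (log2 fold change 1.01 ± 0.25, adjusted p = 0.00928). That call was lost with free RNA subtracted (0.53, adjusted p = 0.345), with DESeq2 (0.99, adjusted p = 0.212) and without UIR1 (0.84, adjusted p = 0.135). In cells without a C1q UMI it was 6.03 CPM in control and 10.2 CPM in UIR PT. In LOH the gene was called in both injuries from 1 control UMI, with ratios of 9.17 (95% interval 1.62 to 365) and 15.2 (95% interval 2.68 to 607), and macrophage markers moved with it, from a sum of 0 to 5.12 CPM (C1qc and Ms4a7 at 0) to 27.9 to 47.5 CPM and 39.4 to 47.6 CPM (none at 0). The observed Csf1r UMIs were 123 UMIs against 41.6 that go with the markers in UIR and 108 UMIs against 28.8 in UUO. The LOH log2 fold changes were 2.86 and 3.64, and with free RNA subtracted neither call held (1.85, adjusted p = 0.353 and 3.11, adjusted p = 0.0508), and the UIR call was lost under 8 of 24 alternatives, 6 of them without 1 library (Ctrl, N2, AN1, AN2, UIR1 or UIR2).

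**Figure D5:**
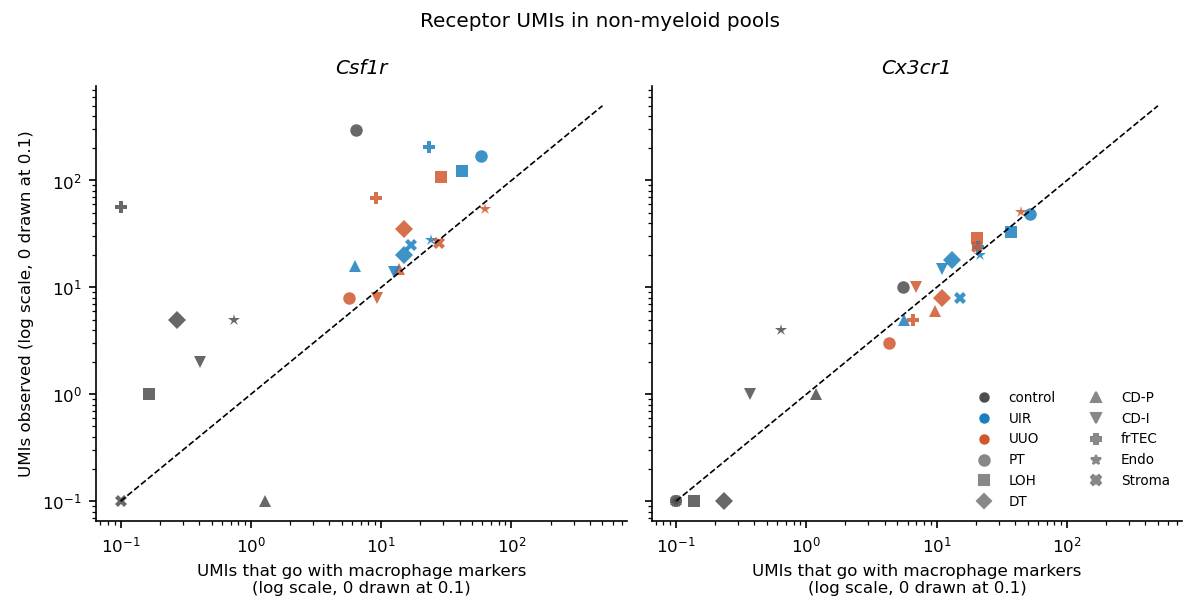
UMIs of Csf1r (left) and Cx3cr1 (right) observed in the summed pools of non-myeloid classes (y axes) against the UMIs that go with the macrophage marker UMIs in the same pools at the ratio found in macrophages (x axes, both log scales with 0 drawn at 0.1). Each point is a class in a group and the dashed line marks equality. Cx3cr1 lies along the line in injured pools, and Csf1r of control PT, at 294 UMIs against 6.45, lies far above it.

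Csf2 (ENSMUSG00000018916, chr11:54247271-54249667, minus strand), the GM-CSF gene, was detected in few cells. Kept cells held 43 of its UMIs, 34 of them in 26 of 3728 T/NK cells (0.697%, exact 95% interval 0.456% to 1.02%). They were found in 2 of 75 T/NK cells from controls, in 11 of 2056 from UIR and in 13 of 1597 from UUO. The other UMIs lay in 5 cells of an unnamed lymphoid cluster led by Il1rl1 and in 2 frTEC. No UMI was found in 9096 PT cells, which allows a share of cells with a UMI of up to 0.033%, in 8439 macrophages (up to 0.0355%) or in 3554 endothelial cells (up to 0.0844%). These limits cover counting error only and concern cells with a UMI at this depth. They do not bound the share of cells that express the gene, which was too sparsely counted for that.

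Csf2ra (ENSMUSG00000059326, chr19:61223957-61228429, minus strand), the ligand-binding chain of its receptor, was lower in macrophages of both injuries. It was at 346, 526.4, 342, 335 and 404 CPM in the controls, 213, 217 and 252 CPM in UIR and 216, 231 and 227 CPM in UUO. Every injured library lay below every control, at -0.79 ± 0.15 (adjusted p = 0.00226) and -0.88 ± 0.15 (adjusted p = 0.000415). Within the P2ry6-led cluster the fall was -0.66 ± 0.16 (adjusted p = 0.0095) and -0.68 ± 0.15 (adjusted p = 0.0048). The call was lost when predicted doublets were kept (-0.25, adjusted p = 0.541 and -0.16, adjusted p = 0.67).

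The sub-classes differed, with Csf2ra at 171 ± 9.89 CPM in Mrc1-Folr2 and 317 ± 50.7 CPM in Trem2-Gpnmb macrophages of UUO. Neutrophils and monocytes of UUO held 297 ± 44.1 CPM and 309.8 ± 1.57 CPM. Csf2ra was also counted in distal epithelium and podocytes, at 38.5 ± 11.3 CPM in control CD-P and 43.7 ± 23.4 CPM in control podocytes. In control CD-P, 104 UMIs were observed against 0.645 that go with macrophage markers. In DT it rose, from 8.55, 12.3, 2.04, 23.0 and 8.09 CPM in controls to 24.4, 38.4 and 36.7 CPM in UIR and 30.8, 39.4 and 33.2 CPM in UUO (log2 fold change 1.4 ± 0.32, adjusted p = 0.00119 and 1.41 ± 0.32, adjusted p = 0.000791), and in LOH it was called in UIR (0.6 ± 0.21, adjusted p = 0.0304). Macrophage markers go with 4.6 of the 217 Csf2ra UMIs observed in DT of UIR and with 3.86 of 215 in DT of UUO. The LOH call did not hold under 6 of 25 alternatives, among them the removal of Ctrl, N2, UIR1 or UIR2, and within the Egf-led cluster the difference was -0.03 ± 0.48 (adjusted p = 0.995).

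Mif (ENSMUSG00000033307, chr10:75859353-75860240, minus strand), a cytokine gene expressed by most cells, was lower in LOH, DT, CD-P and CD-I of both injuries. In CD-I, where it was highest, it was at 1179, 1235, 1352, 982 and 979.8 CPM in the controls, 966, 655 and 681 CPM in UIR and 960.2, 695 and 621 CPM in UUO. The change was -0.82 ± 0.17 (adjusted p = 0.00157) and -0.91 ± 0.17 (adjusted p = 0.000252). In LOH the injured libraries all lay below the controls, at 416 ± 62.6 CPM in controls, 282 ± 49.0 CPM in UIR and 261 ± 36.3 CPM in UUO (-0.81 ± 0.16, adjusted p = 0.000228 and -0.92 ± 0.16, adjusted p = 4.4e-05). In the Egf-led LOH cluster the UIR level was 422 ± 67.2 CPM (n = 2) against 417 ± 63.3 CPM, whereas within the Aqp3-led CD-P cluster and the Atp6v1g3-led CD-I cluster the fall was called in UIR, at -0.91 ± 0.17 (adjusted p = 0.00163) and -0.86 ± 0.18 (adjusted p = 0.00332). Within the S100g-led DT cluster it was not, at -0.4 ± 0.17 (adjusted p = 0.144), and the DT call in UIR was also lost with predicted doublets kept (-0.26, adjusted p = 0.382) and at Leiden resolution 2 (-0.22, adjusted p = 0.782). The CD-P calls were lost with predicted doublets kept (-0.45, adjusted p = 0.104 in UIR and -0.33, adjusted p = 0.209 in UUO), from -0.86 and -0.71, and without UIR2 in UIR and without UUO1, UUO2 or both N libraries in UUO. The UUO call in CD-P was lost at Leiden resolution 2 too (-0.5, adjusted p = 0.0835).

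Markers of PT moved in the same direction in these pools, with a sum of 9 markers of 199 to 395 CPM in control LOH, 55.0 to 96.9 CPM in UIR and 18.6 to 27.4 CPM in UUO, none at 0. Mif was at 598 ± 64.1 CPM in control PT, and the part of such RNA in the distal change of Mif was not tested. In PT itself Mif was 598 ± 64.1 CPM in controls, 529.5 ± 67.6 CPM in UIR and 575 ± 65.1 CPM in UUO, not called. In stroma it was higher in both, from 88.4 ± 30 CPM to 157 ± 22.5 CPM and 182 ± 35 CPM (adjusted p = 0.0368 and 0.0203), in the different stromal sub-classes named above. These calls were lost under 11 of 24 alternatives in UIR, with the replicate block among them (0.8, adjusted p = 0.0538), and under 8 of 25 in UUO, and without N1, AN1 or some injured libraries (UIR, UIR1, UIR2 in UIR, UUO in UUO). Within the Sfrp2-led cluster that held most control stroma the UUO difference was 0.87 ± 0.29 (adjusted p = 0.134). In macrophages it was 101 ± 30.3 CPM in controls, 142 ± 13.6 CPM in UIR and 142 ± 23.5 CPM in UUO and did not pass. Mif has processed copies elsewhere in the genome, so its counts are uncertain to that extent.

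Cd47 (ENSMUSG00000055447, chr16:49800533-49915010, plus strand), the ligand of SIRPA, rose in every distal tubular class and in frTEC of both injuries, and in PT of UIR. In LOH it was at 163, 129.7, 148, 166 and 131 CPM in the controls, 407, 399 and 444 CPM in UIR and 455, 479 and 458 CPM in UUO, a change of 1.24 ± 0.13 (adjusted p = 5.36e-08) and 1.4 ± 0.13 (adjusted p = 5.11e-09). In DT it was at 90.8, 80.0, 104, 99.8 and 82.5 CPM in the controls, 283, 249.5 and 342 CPM in UIR and 375, 379.8 and 363 CPM in UUO, with 1.34 ± 0.13 (adjusted p = 1.93e-08) and 1.62 ± 0.13 (adjusted p = 3.21e-10). No injured library of either class overlapped the controls. Within the S100g-led DT cluster the UIR difference was 0.45 ± 0.41 (adjusted p = 0.51) and not called, and the UIR call over all DT cells was also lost with predicted doublets kept (0.33, adjusted p = 0.348) and at Leiden resolution 2 (0.69, adjusted p = 0.297).

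In frTEC, Cd47 was 173 ± 74.0 CPM in controls, 354 ± 14.6 CPM in UIR and 401 ± 43.0 CPM in UUO, at 1.05 ± 0.24 (adjusted p = 0.0194) and 1.18 ± 0.24 (adjusted p = 0.0075). Both calls rest on 3 control libraries and were lost without AN2 (0.83, adjusted p = 0.101 and 0.92, adjusted p = 0.0521), and the UIR call also without Ctrl (0.97, adjusted p = 0.0968). In PT of UIR the call, at 0.6 ± 0.12 (adjusted p = 0.0021), was lost at a mitochondrial limit of 15% (0.65, adjusted p = 0.0988).

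CD-P and CD-I followed, with Cd47 at 0.63 ± 0.14 (adjusted p = 0.00246) and 1.0 ± 0.13 (adjusted p = 8.46e-06) in the former and 0.74 ± 0.14 (adjusted p = 0.000596) and 1.15 ± 0.14 (adjusted p = 8.98e-07) in the latter. The UIR call in CD-P was lost at a mitochondrial limit of 50% (0.44, adjusted p = 0.061). In the Egf-led LOH cluster the UIR level was 183 ± 51.5 CPM (n = 2) against 146 ± 17.1 CPM in controls (adjusted p = 0.648), and in the Aqp3-led CD-P cluster 244 ± 19.5 CPM against 188 ± 9.06 CPM (adjusted p = 0.348). In endothelium, stroma and macrophages, where control levels were higher than in any control tubular class, it was 609 ± 98.4 CPM in controls, 584 ± 60 CPM in UIR and 691 ± 22.4 CPM in UUO, 248 ± 23.4 CPM in controls, 237 ± 8.67 CPM in UIR and 246 ± 37.8 CPM in UUO, and 287 ± 38.1 CPM in controls, 250.2 ± 36.1 CPM in UIR and 299 ± 25.1 CPM in UUO, and no difference was called.

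Sirpa (ENSMUSG00000037902, chr2:129592835-129632228, plus strand), the inhibitory phagocyte receptor, was at 239, 268, 144, 215 and 213 CPM in the controls, 276, 292 and 274 CPM in UIR and 319, 257 and 383 CPM in UUO in macrophages. Neither difference passed the test over all macrophages (0.36 ± 0.15, adjusted p = 0.191 and 0.46 ± 0.15, adjusted p = 0.0615), and within the P2ry6-led cluster the UUO difference did (0.55 ± 0.16, adjusted p = 0.0377). Neutrophils and monocytes of UUO held 300.1 ± 25.6 CPM and 278 ± 58.5 CPM, and podocytes 178 ± 32.7 CPM in controls, 150.5 ± 3.76 CPM in UIR and 162 ± 106 CPM in UUO. Sirpa has close paralogs, and its counts are uncertain where reads could belong to them.

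In endothelium Sirpa was at 1.75, 5.84, 6.99, 3.17 and 7.5 CPM in the controls, 9.99, 14.8 and 14.2 CPM in UIR and 22.5, 25.8 and 20.7 CPM in UUO, called at 1.44 ± 0.36 (adjusted p = 0.0427) and 2.22 ± 0.32 (adjusted p = 0.000126). The UUO call held under every alternative run, whereas the UIR call was lost under 11 of 25, among them free RNA subtracted (1.35, adjusted p = 0.153) and the removal of Ctrl, N1, AN1, UIR1, UIR2 or any 1 UUO library. In peritubular endothelium it was at 4.69, 16.8, 30.4, 0 and 7.03 CPM in the controls, 27.2, 40.8 and 40.6 CPM in UIR and 98.4, 74.9 and 81.7 CPM in UUO, a rise of 2.16 ± 0.49 (adjusted p = 0.00528) and 3.28 ± 0.43 (adjusted p = 1.12e-06), and UUO exceeded UIR there by 1.12 ± 0.26 (adjusted p = 0.0327). That sub-class joins the Rgcc-led cluster (201 control, 228 UIR and 119 UUO cells) with one led by Plvap and Selp (13, 213 and 269), so its makeup differed between the groups. In the Rgcc-led cluster Sirpa had too few UMIs for the test, at 7.09 ± 13.2 CPM in controls, 9.0 ± 8.89 CPM in UIR and 23.1 ± 8.79 CPM in UUO, with overlapping libraries, and in the cluster led by Plvap and Selp it was 61.7 ± 14.6 CPM in UIR and 113 ± 18.2 CPM in UUO. Macrophage markers in endothelial pools summed to 0 to 10.5 CPM in controls (Ms4a7 at 0), 68.4 to 94.4 CPM in UIR and 79.0 to 189.5 CPM in UUO (none at 0), and they go with 21.9 of the 265 Sirpa UMIs observed in UUO and 9.47 of 97 in UIR.

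The tubule held 56.9% ± 10.8 of Sirpa UMIs in controls, 18.4% ± 4.17 in UIR and 5.71% ± 2.42 in UUO, most of it in controls from PT (51.9% ± 11.4), and macrophages held 14.7% ± 4.13, 59.0% ± 4.81 and 64.0% ± 8.27. Sirpa was at 19.1 ± 3.26 CPM in control PT, 19.3 ± 11.3 CPM in control CD-P and 22.7 ± 7.89 CPM in control frTEC, with no difference called in these classes. In control PT 919 UMIs were observed where macrophage markers go with 1.98. Levels were lower in control LOH (3.2 ± 3.55 CPM), DT (1.35 ± 1.25 CPM) and CD-I (0.561 ± 0.775 CPM).

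In DT Sirpa was at 2.14, 0, 2.04, 2.56 and 0 CPM in the controls, 4.8, 8.05 and 6.81 CPM in UIR and 5.35, 9.86 and 7.66 CPM in UUO, and the differences were called, at 1.78 ± 0.65 (adjusted p = 0.0361) and 1.99 ± 0.64 (adjusted p = 0.0135). The UIR call was lost under 6 of 15 alternatives (DESeq2, and without Ctrl, N1 or AN2 among them), and the UUO call without both AN libraries (1.77, adjusted p = 0.0597). Macrophage markers moved with it in DT, from a sum of 1.07 to 5.12 CPM in controls (C1qa and Ms4a7 at 0) to 48.7 to 65.8 CPM in UIR and 37.3 to 65.6 CPM in UUO (none at 0). They go with 5.78 of 43 Sirpa UMIs in UIR and 5.13 of 49 in UUO.

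UUO and UIR were also compared directly. Of 69 tests 5 were called, 4 higher and 1 lower in UUO. Il34 in CD-I was higher in UUO by 1.51 ± 0.29 (adjusted p = 0.00285), where 3.72% of all genes were called, and Csf1 in CD-P by 0.95 ± 0.2 (adjusted p = 0.0134), where 2.67% were. The Csf1 call in CD-P was lost without UIR1 (0.87, adjusted p = 0.0925), UUO (0.87, adjusted p = 0.0564) or UUO1 (0.79, adjusted p = 0.0941) and at a mitochondrial limit of 15% (0.82, adjusted p = 0.179). In DT, where 7.74% were called, Csf1 and Il34 (1.61 ± 0.45, adjusted p = 0.0247) were higher and Cx3cl1 was lower in UUO. All 3 were lost with DESeq2 (adjusted p = 0.0565, 0.0631 and 0.107), at log2 fold changes of 2.28, 1.61 and -0.52, and Il34 also without UIR (1.4, adjusted p = 0.13) or UIR2 (1.36, adjusted p = 0.104). In PT, LOH, frTEC, endothelium, stroma and macrophages as whole classes no member was called, with 0.0434%, 2.35%, 0.978%, 2.16%, 0.251% and 2.01% of all genes called by edgeR. Within endothelial sub-classes, Csf1 was lower in UUO than in UIR in glomerular cells, at -0.89 ± 0.17 (adjusted p = 0.00129) with 2.21% of genes called, and Sirpa was higher in peritubular cells, as given above, with 0.409% called.

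In whole-library totals, which sum every barcode and do not depend on cell calling, all 10 genes were called in both injuries, 9 higher and Mif lower, beside 67.5% of all genes in UIR and 78.1% in UUO. These changes are after TMM scaling, and the scaling decides their size. Scaled by library size alone, the median log2 fold change of all genes moved from 0.07 to 1.08 in UIR and from 0.1 to 1.54 in UUO, the same 9 genes were called higher, and Mif was not called (-0.16, adjusted p = 0.506 and -0.45, adjusted p = 0.057). Mif was at 308 ± 84.7 CPM in controls, 276 ± 44.0 CPM in UIR and 225 ± 20.1 CPM in UUO, and the UIR libraries overlapped the controls while all 3 UUO libraries lay below them. In these sums more cells of a type and more RNA per cell cannot be told apart. Cx3cr1 was at 2.72 ± 0.4 CPM in controls, 40.9 ± 9.34 CPM in UIR and 115 ± 44.5 CPM in UUO, a log2 fold change of 2.85 ± 0.26 (adjusted p = 1.39e-06) and 3.93 ± 0.26 (adjusted p = 3.91e-08). Csf1r was at 6.02 ± 1.22 CPM in controls, 50.8 ± 11.7 CPM in UIR and 152 ± 27 CPM in UUO, Csf1 at 1.97 ± 0.524 CPM in controls, 14.1 ± 2.8 CPM in UIR and 30.4 ± 3.24 CPM in UUO, Il34 at 4.91 ± 1.77 CPM in controls, 23.2 ± 1.96 CPM in UIR and 25.2 ± 5.98 CPM in UUO, and Cx3cl1 at 5.41 ± 1.72 CPM in controls, 27.1 ± 2.61 CPM in UIR and 42.6 ± 4.21 CPM in UUO. After TMM scaling, which makes them smaller than the ratios of these CPM, the log2 fold changes in UUO were 3.21 for Csf1r and 3.93 for Cx3cr1, against 2.5 for Csf1, 0.93 for Il34 and 1.55 for Cx3cl1. Macrophages were 370 of 10241 kept cells in controls, 3814 of 16927 in UIR and 4255 of 13317 in UUO. Csf2 rose by 2.03 (UIR) and 3.39 (UUO), but control libraries held only 1, 0, 1, 0 and 2 of its UMIs. The UIR libraries held 9, 5 and 7, those of UUO 15, 10 and 15. Its mean level was 0.0078 CPM for controls, 0.0745 CPM for UIR and 0.254 CPM for UUO, so the size of either change is imprecise. The UIR call was lost without library UIR (1.67, adjusted p = 0.067) or both N libraries (1.87, adjusted p = 0.0543). The library Ctrl stood apart among controls in these totals for Il34, Cx3cl1, Mif, Cd47 and Sirpa, and all 10 genes were called without it too.

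Other genes of these pathways were counted from fixed lists. Beside each count stands the percent of the list's tests that were called and the percent of all genes called in the classes of those tests. A gene counts once in every class where it was tested, so the tests of a list are not independent. The lists were also chosen with earlier results of these data known, so the percents only describe the listed genes. Of the receptor complex list, 8 of 17 tests were higher and 0 lower in UIR (47.1% of tests against 11.2% of all genes), and 9 and 0 in UUO (52.9% of tests against 15.7% of all genes). Sdc1, which codes for a cell surface proteoglycan that can bind IL-34, rose in LOH, DT, CD-P and CD-I of both, with log2 fold changes from 1.31 in CD-I of UIR to 5.09 in DT of UUO. Csf2rb, the shared beta chain that signals for CSF2, rose in endothelium (1.84 and 1.36) and macrophages (1.02 and 1.23). Csf2ra fell in macrophages and was not called in endothelium. Csf2rb2 is a near-identical copy of Csf2rb, so reads may have been split between them.

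Of genes that carry CSF1R and CSF2R signals or set macrophage identity, 19 of 140 tests were higher and 9 lower in UIR (20% of tests against 15.1% of all genes), and 26 and 16 in UUO (30% of tests against 20.2% of all genes). Runx1, a transcription factor, rose in LOH, DT and CD-P of both injuries and was lower in macrophages (-0.93 and -0.76). Tyrobp, a myeloid adaptor, rose in PT, LOH and DT of both, where the sums of macrophage markers were also larger, as given above for PT and LOH. Of the fractalkine shedding and integrin list, 13 of 42 were higher and 4 lower in UIR (40.5% of tests against 15% of all genes), and 16 and 2 in UUO (42.9% of tests against 19.9% of all genes). Adam10, a protease that sheds fractalkine, rose in DT (1.21 and 1.74) and LOH (1.16 and 1.47) of both injuries.

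Of the MIF receptors and its homolog, 11 of 32 tests were higher and 6 lower in UIR (53.1% of tests against 15.1% of all genes), and 14 and 8 in UUO (68.8% of tests against 20.3% of all genes). Cd74, the MIF receptor and MHC class II chaperone, rose in all 4 distal classes, with log2 fold changes from 3.38 in CD-P of UIR to 4.42 in CD-I of UUO. It also rose in PT (4.09 and 4.8), frTEC (5.79 and 4.52) and stroma (5.03 and 5.38), and in endothelium of UUO (1.71). Ddt, the homolog of MIF, fell as Mif did in CD-I (-1.07 and -1.8) and DT (-1.85 and -2.28). Of the partners of CD47 and SIRPA, 11 of 69 were higher and 3 lower in UIR (20.3% of tests against 15.1% of all genes), and 13 and 7 in UUO (29% of tests against 19.6% of all genes). Thbs1, a secreted ligand of CD47, rose in stroma (3.99 and 4.12), in macrophages (3.75 and 3.67) and in endothelium of UUO (4.22). It fell in CD-I (-0.84 and -3.36) and frTEC (-1.96 and -1.61) of both injuries, and in CD-P (-2.76) and DT (-1.36) of UUO. The stromal rise compares the different sub-classes named above. In DT of UUO the median log2 fold change was 1.62 over the 4 tested genes of the shedding list, 0.56 over 15 signalling genes and 4.27 over 3 genes of the MIF list, 0.0016 over 7 partners of CD47 and SIRPA and 5.09 for the 1 tested gene of the receptor list, beside 0.0567 over all genes. Other classes gave other medians. In macrophages of UUO they were -0.097 for the shedding list, -0.0595 for the signalling list, 0.0008 for the MIF list, -0.162 for the partners and 1.15 for the receptor list, and in stroma of UUO the shedding list was at -0.293. Cd74 is abundant in macrophages and other antigen-presenting cells, and the part of their RNA in its rise was not tested.

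Across 136 pools of a class in a library, the genes with the most similar pattern were given by Pearson's r of log2(CPM + 1) among 7130 genes. For Csf1 they were Id1 (0.752), Edn1 (0.752) and Pdlim7 (0.741), for Il34 Sdc2 (0.830), Hoxc8 (0.814) and Hoxc6 (0.809) and for Cx3cl1 Serpinh1 (0.855), Ephb4 (0.847) and Ptprg (0.841). For Csf1r they were Fcgr3 (0.870), Clec4a3 (0.863) and Fcgr1 (0.856) and for Cx3cr1 Clec4a3 (0.918), Fcgr1 (0.915) and Clec4a1 (0.898). Pools of a library share its depth and free RNA, and pools of a class its cell type, so these values describe shared cell type patterns.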

How the data were processed

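The authors deposited raw UMI counts per gene and barcode for 11 libraries, made per the labels with Cell Ranger 3.1.0 on mm10, while the paper's methods name a later version. Barcodes were called here as cells from at least 500 UMIs against the RNA of barcodes ranked 45000 to 90000 (10000 simulations, adjusted p under 0.01), or directly where they exceeded the 99th percentile of the top 3000 barcodes divided by 10. Cells over 30% mitochondrial or 5% hemoglobin UMIs, cells under 200 genes and the 7.5% of cells with the highest doublet score were removed. The rest were clustered (2000 genes, 40 then 30 components, 20 neighbours, Leiden resolution 1).

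Counts were summed per class and library with at least 20 cells and tested with edgeR 4.0.16 (R 4.3.3, TMM, quasi-likelihood, control, UIR and UUO in 1 model, Benjamini-Hochberg over all genes of the class, threshold 0.05). DESeq2 1.42.0 was an alternative. Shares were compared by two-sided exact permutation tests. Sub-class levels use at least 10 cells.

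All 10 genes are named. Of each pathway list and class at most the 3 called genes with the largest change could be named, and the 3 genes most similar to each of 5 members. The members and lists were chosen with earlier results of these data known. Tests within the largest control cluster of each class, within glomerular and peritubular cells, and with library sizes left unscaled were added after seeing the data. Intervals and limits cover counting error only. On simulated counts, 69 to 94 of 100 genes changed by a log2 fold change of 2 were recovered in LOH, DT, endothelium and macrophages, and 5 to 21 of 100 at 1. The simulation gave every gene the same fixed spread between libraries, which was not estimated from the data. These counts are therefore not the recovery rate of real genes, and some members were called at changes under 1 (Cd47 in CD-P of UIR at 0.63). Python 3.11.15, scipy 1.17.1 and leidenalg 0.10.2 were used.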

Additional observations from a re-analysis of the deposited data

Results flagged for a closer look

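In 7 of 47 groups of control levels 1 library stood apart from the other 4, where chance gives about 1 in 20 groups. The gap to the nearest library, as a fraction of the range, was 0.718 for Csf2ra in LOH (library AN2) and 0.738 for Cx3cl1 in CD-P (library N2). In whole-library totals the library Ctrl stood apart for Il34 (0.773), Cx3cl1 (0.743), Mif (0.898), Cd47 (0.955) and Sirpa (0.758). The 5 values of Ctrl come from 1 library and are not independent.

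Between UUO and UIR, 5 differences passed edgeR's quasi-likelihood test of the difference itself. The log2 fold change of UUO over UIR was 1.51 for Il34 in CD-I, 0.95 for Csf1 in CD-P, 2.31 for Csf1 in DT, -0.54 for Cx3cl1 in DT and 1.61 for Il34 in DT. All 3 DT differences compare classes in which the Clu-led cluster held 358 of 738 UIR and 242 of 299 UUO cells, and the part of that makeup was not tested.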

How the results depend on the processing

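Of 66 calls in cell classes, 27 held under every alternative that gave a value and 39 were lost under at least 1. Over 1559 comparisons of a call with an alternative, 1420 held, 137 were lost and 2 reversed, namely Csf2ra (-0.028) and Mif (0.0501) in LOH of UIR within the largest control cluster. The 32 UIR calls became 10 of 23 tests with a mitochondrial limit of 15%, and 4 of 21 within the largest control cluster of each class. Fewer genes and libraries could be tested in those clusters, and 0.349% (PT) to 22.4% (CD-I) of all genes were called there. The 29 UUO calls became 8 of 18 and 3 of 11, the latter beside 2.14% (stroma) to 6.39% (macrophages) of all genes. With predicted doublets kept, 22 UIR calls held, 6 were lost and 13 gained, and in UUO 17, 5 and 18. At the 50% limit 26 held, 4 were lost and 6 gained in UIR, and 19, 3 and 10 in UUO. The remaining calls had no test there. Leaving out 1 library gave 24 to 33 UIR and 25 to 32 UUO calls. The 5 calls between UUO and UIR became 11 without the filter on low counts, 2 with DESeq2, 2 at the 15% limit, 3 with predicted doublets kept, 2 at Leiden resolution 2 and 0 within the largest control cluster (9 tests), and 2 to 5 without 1 library (3 without UIR1, 2 without UUO1). The 9 called shares became 0 to 5 without 1 library, since 4 against 3 libraries cannot give an exact p under 0.0571, nor 5 against 2 under 0.0952. The cause of the other changes was not tested. Of 20 whole-library calls 17 held under all alternatives. Csf2 in UIR did not, nor did Mif with library sizes unscaled (-0.16 and -0.45), which also raised the median of all genes by over 0.1 in LOH, DT and CD-I and kept 31 of the 32 UIR, all 29 UUO and 4 of the 5 UUO against UIR calls. Genes at or near 0 in controls, such as Csf1 in DT, limit the precision of their ratios.

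Deviations of UIR and UUO libraries from their group means were correlated over genes in LOH, endothelium and macrophages. The un-numbered libraries UIR and UUO correlated with each other (r of 0.664, 0.545 and 0.389) and negatively with every numbered library of the other injury (-0.527 to -0.0658). Since deviations from a group mean cancel out within the group, these negative values follow in part from the positive ones. The pairs numbered 1 (0.221, 0.149 and -0.0297) and 2 (0.241, 0.0795 and -0.195) passed 0.1 in LOH and not in all 3 classes, and each numbered library correlated best with the other number, so the numbers were not taken to pair the libraries. In the block the un-numbered libraries form a level of their own. With a replicate block there were 32 UIR, 29 UUO and 7 UUO against UIR calls, and 10 and 10 in whole-library totals. They were not all the same calls: the block kept 31 of the UIR calls, losing Mif in stroma (adjusted p = 0.0538), and 28 of the UUO calls, losing Cx3cl1 in frTEC (0.0558), gained 1 in each and kept all 5 between UUO and UIR.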
